A study of Homo sapiens with 3 samples.

Results

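Residual expression of androgen-induced genes was examined cell by cell in LNCaP–ENZ168, a Drop-seq library of LNCaP prostate cancer cells kept for 168 h in 10 µM enzalutamide (ENZ). Of 943 cells that passed the cell filter, 189 were called androgen-target-high and 319 negative. The groups were chosen from the measured unique molecular identifiers (UMIs, 1 per captured mRNA molecule) of 6 genes, namely KLK3, KLK2, TMPRSS2, FKBP5, PMEPA1 and SLC45A3. For each cell the summed UMIs of these genes were divided by all its UMIs. High cells were the top 20% of cells by this share, negative cells held 0 UMIs of all 6 genes, and 435 cells lay between.

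LNCaP came from ATCC, was grown in RPMI with 10% FBS and is labelled sensitive to ENZ. The VCaP libraries served only for comparison. VCaP is another prostate cancer line, treated for 48 h with 10 µM ENZ (VCaP–ENZ48) or with 0.1% DMSO, the vehicle (VCaP parental). Each group was 1 library of 1 cell line without replicates. Differences were therefore described and not tested, since cells of a library are not replicates. No LNCaP cells without ENZ were analysed here, and the values describe cells after ENZ rather than a change by ENZ. Intervals are 95% intervals and cover counting error only.

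Androgens switch on a set of genes in luminal prostate cells, among them secreted proteases, membrane transporters and enzymes of lipid synthesis, and ENZ blocks this signal. KLK3 encodes prostate-specific antigen, and KLK2 encodes a related kallikrein protease. TMPRSS2 is a membrane protease, FKBP5 a co-chaperone of steroid receptors, PMEPA1 a membrane protein that restrains TGF-beta signalling and SLC45A3 a prostate membrane transporter. Androgen signalling also holds down other genes, such as UGT2B15 and UGT2B17, which encode enzymes that conjugate and so inactivate androgens.

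KLK3 and KLK2 are neighbours on chromosome 19, and their proximal promoters are shown because the results turn on KLK3. Reads of these similar paralogs can be split wrongly between them, which the promoter bases do not measure. The sequences are the 250 bases before the RefSeq start site, on the plus strand of GRCh38.p14, at chr19:50854665-50854914 for KLK3 and chr19:50873189-50873438 for KLK2. Capitals mark the 15 bases most like an androgen response element, taken as AGAACA and TGTTCT with 3 bases between them, a palindrome that reads the same on both strands.
KLK3: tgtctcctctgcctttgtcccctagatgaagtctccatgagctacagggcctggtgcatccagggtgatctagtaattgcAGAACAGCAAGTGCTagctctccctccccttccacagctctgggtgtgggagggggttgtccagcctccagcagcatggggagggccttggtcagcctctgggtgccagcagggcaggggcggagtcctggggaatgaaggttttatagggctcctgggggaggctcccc
KLK2: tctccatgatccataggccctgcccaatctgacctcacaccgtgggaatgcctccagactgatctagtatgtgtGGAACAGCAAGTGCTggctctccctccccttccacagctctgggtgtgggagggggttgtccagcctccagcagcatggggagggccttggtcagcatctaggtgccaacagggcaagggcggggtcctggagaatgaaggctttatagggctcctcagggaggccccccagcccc

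The KLK3 match started 170 bases before the start site and had 2 mismatches over the 12 fixed bases. The KLK2 match started 176 bases before it and had 3 mismatches. Both matches differed from each other by 1 base, A1G, counted from the first capital with the KLK3 base first. With the matches aligned, 185 of 244 bases were identical. Of 35116 RefSeq promoters, 1.18% held a window with at most 2 mismatches and 9.17% a window with at most 3. Such a match is a description of the letters and not of binding.

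The score genes were rare transcripts in this library. They gave 1763 of 6311413 UMIs, or 279 CPM, the UMIs of a gene scaled by the UMIs of all genes. TMPRSS2 was the most abundant, at 97.4 CPM (89.9 to 105), followed by KLK3 at 91.9 CPM (84.6 to 99.7). FKBP5 was at 28.7 CPM (24.7 to 33.2), KLK2 at 27.1 CPM (23.2 to 31.5), PMEPA1 at 22.3 CPM (18.8 to 26.3) and SLC45A3 at 11.9 CPM (9.35 to 14.9). The intervals of TMPRSS2 and KLK3 overlapped, and so did those of FKBP5, KLK2 and PMEPA1, neighbour with neighbour.

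KLK3 and TMPRSS2 were spread differently over cells. KLK3 was detected in 198 cells (exact binomial interval 18.4 to 23.7%) and TMPRSS2 in 376 (36.7 to 43.1%), although their levels were close. The 33 cells with at least 5 KLK3 UMIs held 53.3% of all KLK3 UMIs. The 16 cells with at least 5 TMPRSS2 UMIs held 14.96% of all TMPRSS2 UMIs. A single cell had 35 KLK3 UMIs, where the most TMPRSS2 UMIs in a cell were 9. KLK3 was therefore concentrated in few cells, whereas TMPRSS2 was seen in more cells at low counts.

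The score genes lie on 5 chromosomes. On GRCh38, KLK3 spans 50854915 to 50860764 of chromosome 19 and TMPRSS2 41464300 to 41531116 of chromosome 21. FKBP5 spans 35573585 to 35728583 of chromosome 6, PMEPA1 57648392 to 57711536 of chromosome 20 and SLC45A3 205657851 to 205680509 of chromosome 1.

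The high group was not a group of cells with every target on. It held 993 score UMIs with a median of 4 in a cell, and 45 of its cells entered with 2 UMIs. Among high cells, 34 had UMIs of 1 score gene, 88 of 2, 45 of 3, 14 of 4 and 8 of 5. KLK3 or TMPRSS2 was detected in 180 of the 189 high cells and both in 78. These values follow from how the groups were chosen and support no difference.

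Depth differed little between the groups. Median depth was 4882 UMIs (2448 genes) in high cells, 4733 UMIs (2350 genes) in negative cells and 6217 UMIs (2829 genes) between. Mitochondrial transcripts made up a median of 8.21% of UMIs in high and 8.34% in negative cells. Barcodes ending in an undetermined base were 23.8% of high cells (17.9 to 30.5%) and 25.7% of negative cells (20.998 to 30.9%). Summed S and G2M phase genes were at 5936 CPM in high, 6374 CPM in between and 6577 CPM in negative cells.

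Even so, a negative call depended on depth. In the shallowest depth decile, 43.2% of cells were negative, and in the deepest 8.51% were. High cells made up 23.2% and 18.1% of the same deciles. At the overall level of the 6 genes, 203 cells would have held 0 UMIs by counting alone had every cell the same share, against the 319 counted. With each cell thinned to 2000 UMIs, 601 cells (63.7%, 60.6 to 66.8%) had 0 score UMIs, and the variance of score UMIs was 1.75 times their mean. A negative cell therefore had no detected target at its depth, which is not the absence of expression.

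The threshold fell in a dense part of the distribution. The last cell inside held 2 score UMIs of 4574 (437 CPM), and the first outside held 3 of 6874 (436 CPM). In all, 53 cells lay within 10% of the limit.

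**Figure D1:**
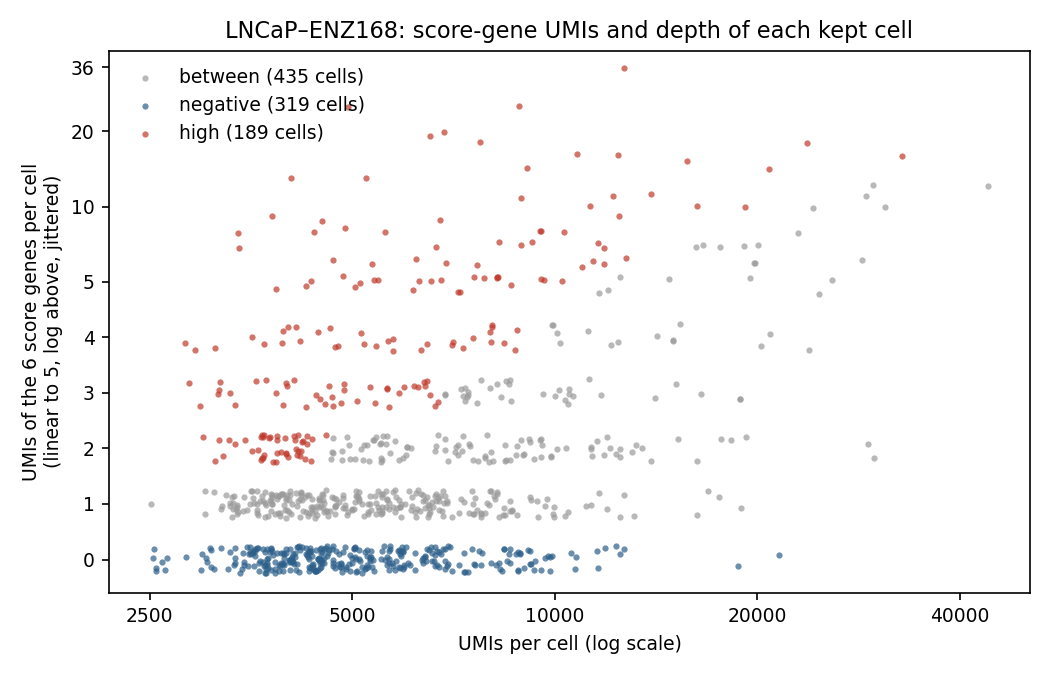
Each point is a kept cell of LNCaP–ENZ168, with its UMIs on a log axis and its UMIs of the 6 score genes (jittered, linear to 5 and log above), coloured as high (189 cells), between (435) or negative (319). High and negative cells spanned similar depths, and the limit of the high group climbs with depth because it is a share.

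Whether the score genes moved together was examined with each gene left out of its own score, so that its values did not choose the cells. KLK3 was at 160 CPM (139 to 184, 199 UMIs) in cells high for the other 5 genes and at 50.8 CPM (41.5 to 61.6, 103 UMIs) in cells with 0 UMIs of them, a log2 ratio of 1.64 (1.31 to 2.02). KLK2 was at 49.2 CPM (37.6 to 63.4) against 20.2 CPM (14.4 to 27.7), a log2 ratio of 1.24 (0.68 to 1.90). Among these 6 genes the 2 kallikreins had the largest held-out ratios, though the interval of KLK2 overlapped those of TMPRSS2, FKBP5, PMEPA1 and SLC45A3. Each kallikrein stayed in the score used for the other. The part of reads split wrongly between the 2 was not tested.

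TMPRSS2 was at 135 CPM (116.02 to 157) against 86.2 CPM (75.5 to 97.9), a log2 ratio of 0.65 (0.36 to 0.94). FKBP5 was at 43.4 CPM (32.3 to 57.1) against 27.0 CPM (20.4 to 35.1), with a log2 ratio of 0.66 (0.11 to 1.26). PMEPA1 was at 22.6 and 19.7 CPM and SLC45A3 at 12.4 and 9.25 CPM. The intervals of their log2 ratios, -0.56 to 0.94 and -0.69 to 1.51, included 0, so a difference was not detectable at this depth.

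Depth was slightly unequal in these splits, with medians of 5500 and 4804 UMIs where KLK3 was left out. Within 10 depth bins, combined as a Mantel-Haenszel ratio, the log2 ratios were 1.72 for KLK3, 1.06 for KLK2, 0.71 for TMPRSS2 and 0.58 for FKBP5. In cells thinned to 2000 UMIs, KLK3 was detected in 14.8% of the high cells (10.1 to 20.7%) and 7.30% of the negative cells (4.86 to 10.4%). Without thinning the shares were 31.7% and 13.8%. No cell type in this library should lack these transcripts, so the level of free RNA in droplets was not measured.

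A further reading split the UMIs of each cell at random into equal parts, set the groups on one part and read the genes in the other. Each gene also helped to set the groups here. This reading therefore shows how far score counts persisted within a cell and cannot show whether the genes moved together. The 6 genes together were at 586 CPM (526 to 652) in the 189 high cells and at 184 CPM (163 to 207) in the 515 cells with 0 score UMIs, a log2 ratio of 1.67 (1.44 to 1.91). KLK3 was at 298 and 32.4 CPM, and TMPRSS2 at 167 and 77.3 CPM. PMEPA1 was at 13.6 and 18.5 CPM, and the interval of its log2 ratio, -1.78 to 0.73, included 0. In a second random split PMEPA1 was at 27.2 and 15.7 CPM and SLC45A3 at 6.79 and 6.84 CPM, so neither had a settled direction.

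**Figure D2:**
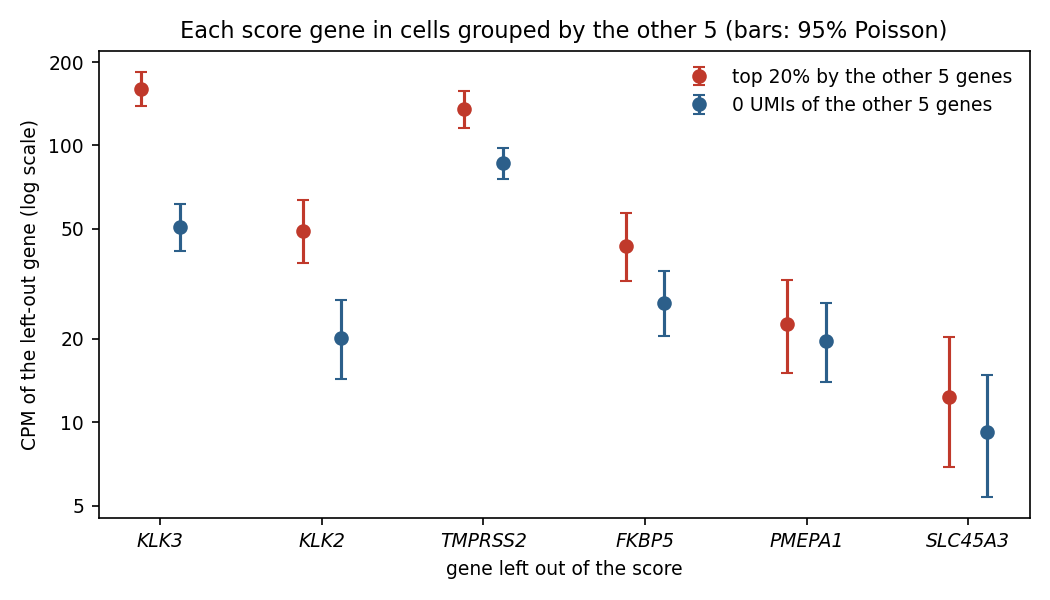
The CPM of each score gene (log axis) in cells grouped by the other 5 genes, as the top 20% or as cells with 0 UMIs of them, with 95% Poisson intervals. The intervals of KLK3, KLK2 and TMPRSS2 did not overlap, and those of FKBP5, PMEPA1 and SLC45A3 did.

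Beyond the score, 4176 genes at 50 CPM or more in either group were compared between high and negative cells on the log2 ratio of CPM + 1. Their median was 0.04, with quartiles of -0.13 and 0.20, so most genes differed little. At least 1.5-fold higher in high cells were 110 genes (2.63% of those compared), and at least 1.5-fold lower were 44 (1.05%). Of the genes compared, 320 reached the minimum only through the high group and 182 only through the negative group. With the minimum set over all kept cells, 66 of 3890 genes were higher and 38 lower. Within depth bins the shares were 2.78% higher and 1.41% lower, and 99.8% of genes lay within 0.2 of their pooled ratio. With TMM scaling, 51 genes were higher and 96 lower, and with mitochondrial and ribosomal protein genes left out of the total the counts were 112 and 91, so the balance of the directions depended on scaling. Neither count comes from a test, and the typical counting interval of a single gene was 0.36 wide on either side.

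The highest of the genes at 100 CPM or more included further androgen-induced genes. KLK4, another kallikrein of the chromosome 19 cluster (50906351 to 50911395), was at 290 CPM (260 to 322, 344 UMIs) in high and 119 CPM (103 to 136, 207 UMIs) in negative cells. Its log2 ratio was 1.28 (1.03 to 1.54), and 1.25 within depth bins. ABCC4, a transporter that exports cyclic nucleotides and other anions, was at 144 CPM (123 to 167) and 62.1 CPM (51.0 to 75.01), a log2 ratio of 1.20 (0.86 to 1.57). ACPP (now ACP3), which encodes prostatic acid phosphatase, was at 125 CPM (105 to 146) and 61.0 CPM (49.9 to 73.8), a log2 ratio of 1.02 (0.66 to 1.41). For these 3 genes the group intervals did not overlap. ABCC4 and ACPP reached 100 CPM only through the high group, and were at 89.7 and 80.8 CPM over all kept cells. REPS2 and TSC22D3, under 100 CPM in both groups, had still larger ratios, but both reached the 50 CPM minimum only through the high group. REPS2, chosen after its values were seen, was at 64.9 and 23.6 CPM.

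The share of cells with a UMI was also read at equal depth. Thinned to 2000 UMIs, KLK4 was detected in 37.6% of high cells (30.6 to 44.9%) and 18.8% of negative cells (14.7 to 23.5%). ABCC4 was detected in 22.2% (16.5 to 28.8%) and 9.72% (6.70 to 13.5%), and ACPP in 18.5% (13.3 to 24.8%) and 11.6% (8.30 to 15.6%), intervals that overlapped for ACPP alone of the 3. Unthinned, the shares for KLK4 were 61.4% and 43.9%. Negative cells therefore still held KLK4, ABCC4 and ACPP transcripts, at lower levels.

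Of 43 listed androgen-induced genes outside the score, 40 were in the table and 19 reached the expression minimum. Of these, 2 reached it only through the high group (CAMKK2 and ZBTB16) and 1 only through the negative group (SLC26A2). The 19 genes had a median log2 ratio of 0.28, and 0.39 within depth bins, beside 0.04 over all genes. At least 1.5-fold higher were 6, among them KLK4, ABCC4, ACPP, CAMKK2 and ZBTB16, and none was 1.5-fold lower. Of all compared genes, 2.63% were higher and 1.05% lower by this fold. CAMKK2, a kinase activated by calcium and calmodulin, was at 53.1 and 31.6 CPM, a log2 ratio of 0.73 that was 0.43 with KLK3 left out of the score. With the minimum set over all kept cells in place of either group, 5 of 17 were 1.5-fold higher, beside 66 of all 3890 genes. The median was again 0.28.

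Not all listed genes followed. STEAP2, a metalloreductase, was at 1113 and 964 CPM and STEAP1, of the same family, at 769 and 760 CPM. SLC26A2, a sulfate transporter, had the lowest ratio of the list, at 43.0 CPM in high and 52.4 CPM in negative cells. Summed over the 40 genes, the list was at 4582 CPM in high and 3654 CPM in negative cells.

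The remaining 9 genes of the 12 with the largest ratios were not on the androgen-induced list. TMEFF2, a membrane protein of prostate and brain, was at 158 CPM (136 to 182) in high and 86.9 CPM (73.6 to 102) in negative cells. SYT4, a synaptotagmin of vesicle traffic, was at 489 CPM (450 to 530) and 273 CPM (249 to 298). PDLIM5, a scaffold at actin filaments, was at 113 and 54.7 CPM, and MBOAT2, a lysophospholipid acyltransferase, at 107 and 58.1 CPM. SLC4A4, a sodium bicarbonate cotransporter, was at 119 and 62.7 CPM, ELOVL5, a fatty acid elongase, at 226 and 133 CPM, and PIAS2, a SUMO ligase, at 104 and 57.5 CPM. C19orf48 (227 and 123 CPM) and MAGED2 (139 and 78.2 CPM) completed the 12. Their log2 ratios ran from 0.75 for ELOVL5 to 1.03 for PDLIM5. Of these 9, only SYT4, C19orf48 and ELOVL5 reached 100 CPM in negative cells too, and the others did so only through the high group. None of these 9 held 1.5-fold under every alternative. With the groups set on thinned cells, MBOAT2 was at a log2 ratio of -0.01, SLC4A4 at 0.29, PDLIM5 at 0.35, PIAS2 at 0.41, ELOVL5 at 0.50, C19orf48 at 0.57 and MAGED2 at 0.58. With KLK3 left out of the score, SYT4 was at 0.33 and TMEFF2 at 0.55. KLK4, ABCC4 and ACPP were at 0.87, 0.81 and 0.64 at their lowest over 28 alternatives, above 1.5-fold in each.

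The androgen-repressed genes did not move as a group. Of 10 listed, 7 were compared, with a median log2 ratio of -0.15. UGT2B15 was lower in high cells, at 264 CPM (235 to 295) against 435 CPM (404 to 467), a log2 ratio of -0.72 (-0.92 to -0.53). UGT2B17 was at 519 and 678 CPM, a log2 ratio of -0.38 (-0.53 to -0.24). These paralogs share much of their sequence, so their counts are uncertain against each other. OPRK1, the kappa opioid receptor, went the other way at 190 and 121 CPM (log2 ratio 0.64, 0.37 to 0.92). FOLH1, prostate-specific membrane antigen, was at 1122 and 978 CPM.

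The lowest ratios belonged mostly to short transcripts of basic cell functions. RPS27A, a ubiquitin and ribosomal protein fusion, was at 329 CPM (298 to 364) in high and 521 CPM (487 to 556) in negative cells. COX7B, a subunit of cytochrome c oxidase, was at 159 CPM (137 to 184) and 248 CPM (225 to 272). MICOS10, which shapes the mitochondrial cristae, had the lowest log2 ratio of the genes at 100 CPM or more, -0.94 (-1.40 to -0.53), at 52.2 and 101 CPM. It reached 100 CPM only through the negative group, as did NDUFB7 and CHCHD1. PTTG1, the securin that keeps separase inactive until anaphase, was at 100.3 and 171 CPM, a log2 ratio of -0.76 (-1.09 to -0.46).

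The others of the lowest 12, beside UGT2B15, were MRPL41, SNRPD3, NDUFB7, SEC61B, RPL39, CHCHD1 and EEF1B2. Their log2 ratios ran from -0.65 for MRPL41 to -0.62 for EEF1B2. They serve mitochondrial and cytosolic translation, splicing, respiration and protein entry into the endoplasmic reticulum.

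Lists for these functions were drawn up after the values were seen. Of 78 cytosolic ribosomal protein genes, 74 were below 0 with a median log2 ratio of -0.36, where 42.8% of all compared genes were below 0. At least 1.5-fold lower were 5 of the 78 and 1.5-fold higher 0, where 1.05% and 2.63% of all compared genes were. The 74 nuclear genes of the respiratory chain had a median of -0.30, and 65 of them were below 0. The 68 mitochondrial ribosomal protein genes had a median of -0.18. The 13 genes encoded by mitochondrial DNA had a median of -0.04.

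Transcript length moved with these ratios. In the quartile of genes with the shortest transcripts (up to 1648 bases) the median log2 ratio was -0.09, with 10 genes 1.5-fold higher and 27 lower. In the quartile with the longest (4986 bases or more) it was 0.11, with 38 higher and 0 lower. A length was found for 98.5% of the genes. The median transcript was 4896 bases for the 10 highest genes with a length and 797 bases for the 12 lowest. Among the androgen-induced genes the 3 in the shortest quartile had a median of 0.56 and the 8 in the longest 0.12. Within bins of the ribosomal protein share of a cell, the median was -0.02 for the cytosolic ribosomal protein genes. That value follows largely from the bins, which matched cells on ribosomal protein transcripts. In the same bins the medians were -0.05 for the nuclear respiratory chain genes and -0.08 for the mitochondrial ribosomal protein genes. The androgen-induced genes had a median of 0.13 there, and 3 of them were at least 1.5-fold higher. The part of length and of ribosomal protein share in the result was not tested.

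Genes of glycolysis and hypoxia stood higher in high cells. Of 18 compared, 17 were above 0 with a median of 0.39 (57.2% of all compared genes were above 0). At least 1.5-fold higher were 5, where 2.63% of all compared genes were. LDHA, lactate dehydrogenase A, was at 763 CPM (714 to 814) and 490 CPM (458 to 524). BNIP3, a mitophagy receptor, was at 430 and 281 CPM, ALDOC, an aldolase, at 178 and 116.2 CPM, and AK4, a mitochondrial adenylate kinase, at 94.4 and 62.1 CPM. FAM162A was the 1 member below 0, at 297 and 361 CPM. A single high cell held 58 of the 905 LDHA UMIs, and without the top cell of each group the list median was 0.37. With KLK3 left out of the score the list median was 0.16, and LDHA, BNIP3, ALDOC and AK4 were at log2 ratios of 0.21, 0.32, 0.40 and 0.46, all under 1.5-fold.

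Steroid-hormone and immediate early genes were also compared. Of 7 glucocorticoid-responsive genes compared, TSC22D3, a glucocorticoid-induced leucine zipper, was at 67.4 CPM (53.5 to 83.9) and 27.0 CPM (19.9 to 35.96), a log2 ratio of 1.29 (0.78 to 1.87). With the groups set on thinned cells the ratio of TSC22D3 was 0.59. ZBTB16, on both hormone lists, was at 69.9 and 46.0 CPM. Both reached the expression minimum only through the high group. MT2A, a metallothionein, was lower, at 39.6 and 60.4 CPM. The list median was 0.28, and 0.20 with the minimum set over all kept cells, which TSC22D3 did not reach. All 13 immediate early genes compared were above 0 (57.2% of all compared genes were), with a median of 0.26. Of these BTG2, an antiproliferative gene, was at 55.6 and 33.4 CPM and MYC at 185 and 118 CPM. Both were at least 1.5-fold higher, where 2.63% of all compared genes were. BTG2 and 1 other gene reached the minimum only through the high group. With the minimum over all kept cells, 11 genes were compared and 1 was 1.5-fold higher, beside 66 of all 3890 genes. The log2 ratio of BTG2 was 0.26 against all other kept cells, and that of MYC 0.55 within depth bins, under 1.5-fold.

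As lists, proliferation genes were lower or level in high cells, with members on both sides. The 17 S phase genes had a median of -0.20 and the 30 G2M phase genes a median of -0.06. At least 1.5-fold lower were 2 and 3 of them, where 1.05% of all compared genes were, and 0 were 1.5-fold higher. Above 0 were 3 S phase and 11 G2M phase genes, where 57.2% of all compared genes were. MKI67, at 102 and 85.1 CPM, and TOP2A, at 154 and 130 CPM, were among those 11 G2M phase genes. Within depth bins their log2 ratios were 0.03 and 0.07, against 0.26 and 0.24 pooled. RRM2, a ribonucleotide reductase subunit, was at 31.2 and 56.4 CPM, UBE2C, which acts in anaphase, at 55.6 and 92.6 CPM and ECT2, which acts in cytokinesis, at 34.5 and 60.4 CPM. RRM2 reached the minimum only through the negative group, as did 4 S phase genes in all. With the minimum over all kept cells, 1 S phase gene was 1.5-fold lower. It was MRPL36, which encodes a mitochondrial ribosomal protein, at 52.2 and 88.6 CPM. With TMPRSS2 left out of the score, the G2M median was 0.21 and the S phase median 0.11, and with KLK3 left out the G2M median was -0.60. The relation with the cell cycle therefore turned on which gene set the score.

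Other lists stood near all genes. The medians were 0.15 for the ATF4 response, 0.13 for sterol and fatty acid synthesis, 0.10 for luminal markers and 0.03 for protein folding in the endoplasmic reticulum, the last turning to -0.07 under TMM scaling. GDF15, a stress cytokine on the ATF4 list, was at 792 and 529 CPM, a log2 ratio of 0.58 that was 0.15 with only barcodes ending in a base. A single high cell held 64 of the 940 UMIs of GDF15 in that group. Of the 22 sterol and fatty acid genes compared, 2 were at least 1.5-fold higher, ELOVL5 among them, where 2.63% of all compared genes were.

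Gene signatures of the study were also read. The median was 0.09 for 138 initial cluster genes, 0.01 for 136 ENZ-induced cluster genes and -0.01 for 341 persistent cluster genes, which come from other LNCaP libraries. It was 0.22 for 33 genes of PROSGenesis, a signature of prostate regeneration in the mouse.

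Both groups carried luminal markers, and 9 of the 11 compared were above 0, where 57.2% of all compared genes were. CLDN4, a claudin, was at 196 CPM (172 to 223) in high and 145 CPM (128 to 164) in negative cells, CDH1, E-cadherin, at 213 and 165 CPM and the keratin KRT18 at 529 and 451 CPM. KRT8 was at 184 CPM in high and 177 CPM in negative cells, EPCAM at 185 and 190 CPM, and HOXB13 at 420 and 402 CPM. The basal markers KRT5, KRT15 and TP63, the neuroendocrine markers CHGA and INSM1 and the stromal, immune and endothelial markers COL1A2, DCN, PTPRC, LYZ and PECAM1 had 0 UMIs in all kept cells, which allows up to 0.475 CPM each. KRT14 had 4 UMIs, all in negative cells. Over whole lists, 3 of 8 basal, 6 of 12 neuroendocrine and 6 of 12 stromal, immune and endothelial genes were in the table, summing to 41.3, 29.5 and 10.1 CPM in high and 44.3, 23.6 and 18.4 CPM in negative cells.

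**Figure D3:**
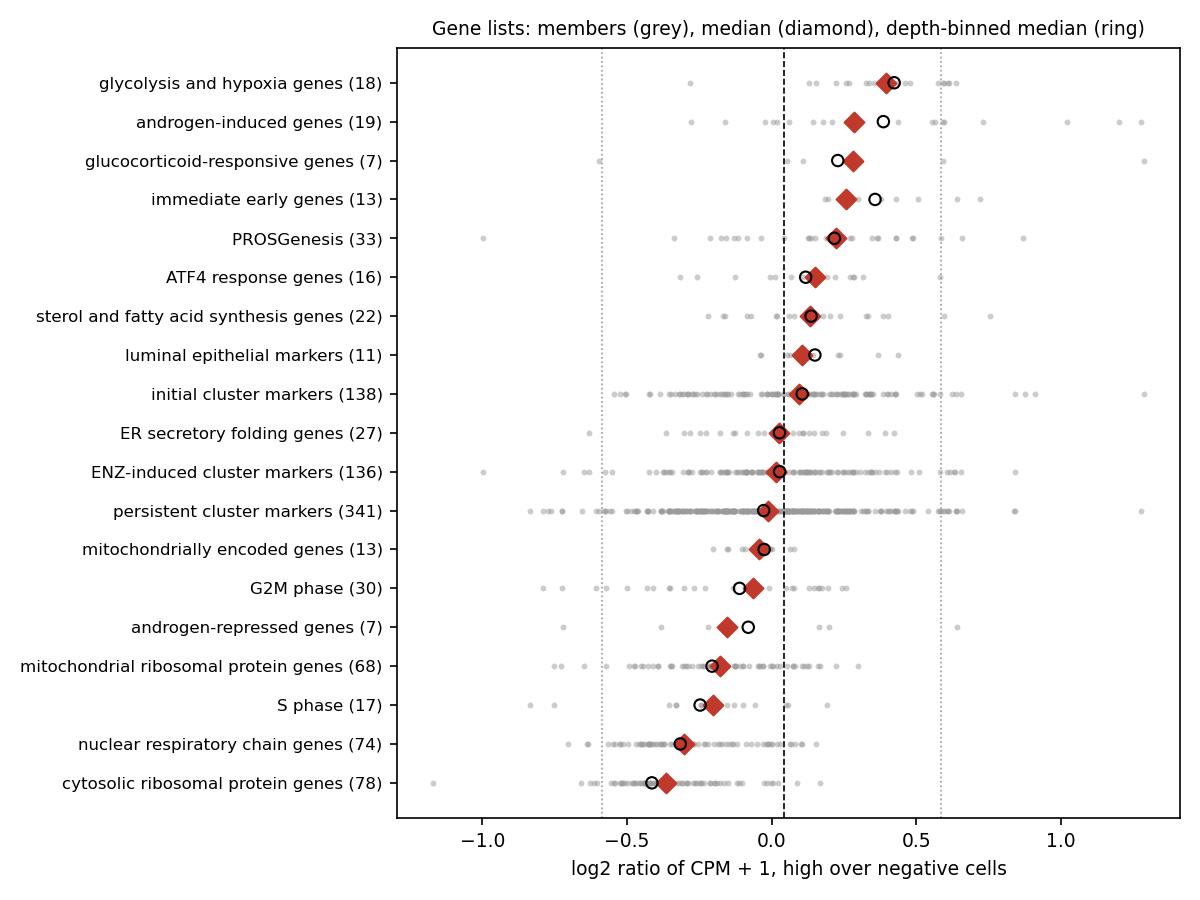
Log2 ratios of high over negative cells for members of each gene list (grey points), with the pooled median (diamond) and the depth-binned median (ring), and the number of genes compared in brackets. The dashed line is the median of all genes (0.04) and dotted lines mark 1.5-fold. Glycolysis and androgen-induced lists lay to the right and ribosomal protein genes to the left.

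The 435 cells between, which were in neither group, were split at their median share (224 CPM) into 217 lower and 218 upper cells. The same genes were then read in cells that had not chosen them. The upper cells were shallower, with a median of 5175 UMIs against 6728, so that summaries within depth bins are given too. Of the 435 cells, 270 held exactly 1 score UMI, and depth alone decided their side of the split. No lower cell had under 4460 UMIs. The 3 shallowest depth bins, up to 4351 UMIs, thus held upper cells only and did not enter those summaries. Share and depth can therefore not be fully told apart in this split.

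Of the 12 highest genes, 10 were above 0 in upper over lower cells, with a median log2 ratio of 0.23, and 10 with a median of 0.31 within depth bins, where 55.3% of all compared genes were above 0. KLK4 stepped from 119 CPM in negative cells to 139 and 190 CPM in the lower and upper cells and 290 CPM in high cells. ABCC4 stepped through 62.1, 76.4, 94.8 and 144 CPM and TMEFF2 through 86.9, 105, 138 and 158 CPM. ACPP was level in negative and lower cells, at 61.0 and 63.4 CPM, then 90.3 and 125 CPM. SYT4 was at 273 and 281 CPM and then 460 and 489 CPM.

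The intervals of neighbouring steps overlapped for several of these genes, as for KLK4 between negative (103 to 136 CPM) and lower cells (123 to 157 CPM). C19orf48, ELOVL5, PDLIM5 and MAGED2 differed little between upper and lower cells, with log2 ratios between -0.08 and 0.03. Of the 19 androgen-induced genes, 16 were above 0, with a median of 0.18, and 0.12 within depth bins.

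Of the 12 lowest genes, 11 were below 0 in upper over lower cells, with a median of -0.31, and 11 with a median of -0.27 within depth bins. Among all compared genes, 44.7% were below 0 there, and 44.1% within depth bins. PTTG1 was at 146 CPM in lower and 76.6 CPM in upper cells, a log2 ratio of -0.92, and -1.05 within depth bins. UGT2B15 was the exception, at 288 CPM in lower and 399 CPM in upper cells (log2 ratio 0.47, and 0.33 within depth bins), and UGT2B17 likewise stood at 474 and 586 CPM. All 7 androgen-repressed genes compared were above 0 there, so neither UGT2B gene followed the share in order. The G2M phase genes had a median of -0.55, and -0.52 within depth bins, beside -0.06 between high and negative cells. The cytosolic ribosomal protein genes had one of -0.28, and -0.27 within depth bins. Immediate early genes were above 0 for 12 of 13.

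**Figure D4:**
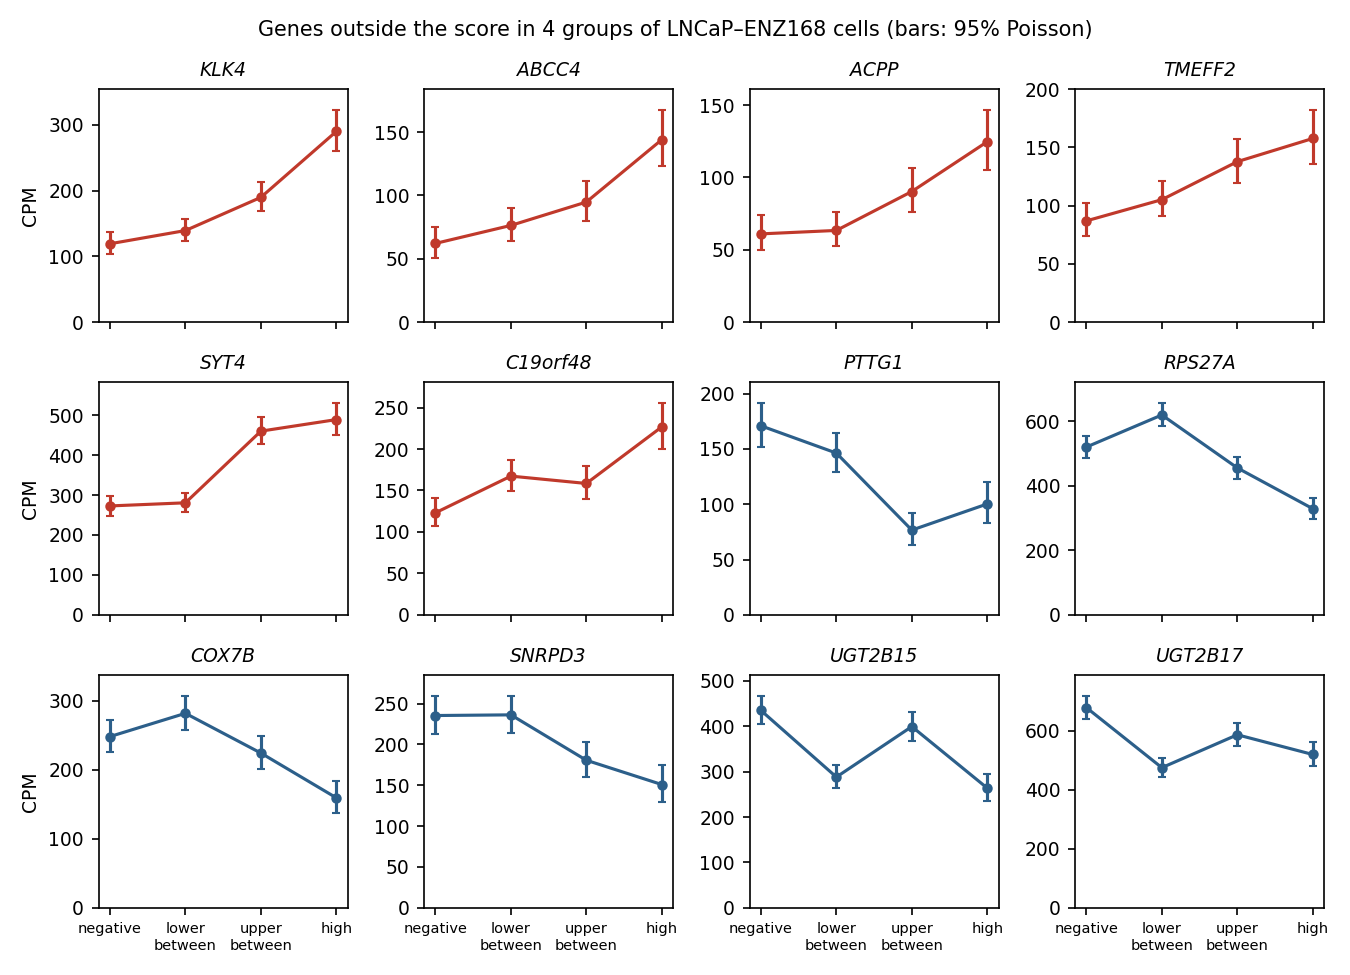
CPM of 12 genes outside the score, each on an axis from 0, in negative, lower between, upper between and high cells, with 95% Poisson intervals. Genes higher in high cells are red and lower ones blue. KLK4, ABCC4 and TMEFF2 step up through the groups, and UGT2B15 and UGT2B17 do not follow an order.

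The same share was then taken in the VCaP libraries, where a negative group could not be formed. Only 1 of 917 kept cells of VCaP–ENZ48 and 0 of 997 of VCaP parental had no score UMI. KLK2 alone gave 94.6% and 79.1% of the score UMIs there, against 9.70% in LNCaP–ENZ168, so that the share ranks cells by other genes. The top 20% of cells (183 and 199) were set against the bottom 20%. Their depths were close, with medians of 11000 and 11144 UMIs in VCaP–ENZ48 and 17128 and 17216 in VCaP parental.

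ACPP stood out in all 3 libraries. It was at 5302 CPM in the top and 2643 CPM in the bottom cells of VCaP–ENZ48 and at 3434 and 923 CPM in VCaP parental, log2 ratios of 1.00 (0.96 to 1.05) and 1.89 (1.84 to 1.95). C19orf48 (768 and 483 CPM) and MAGED2 (441 and 229 CPM) were also higher in the top cells of VCaP–ENZ48. KLK4 was not, at 330 and 341 CPM in VCaP–ENZ48 and 176 and 204 CPM in VCaP parental. ABCC4 was at 60.2 and 60.0 CPM in VCaP–ENZ48. In VCaP parental it was higher in the top cells, at 63.2 and 46.7 CPM, a log2 ratio of 0.43 (0.14 to 0.73). These differences between the lines were not tested.

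The lists differed in size between libraries. The androgen-induced genes had a median of 0.47 in VCaP–ENZ48 and 0.42 in VCaP parental, beside 0.02 and -0.05 over all genes. The G2M phase genes had medians of -1.66 and -2.86, far below the -0.06 of LNCaP–ENZ168. PTTG1 was at 5.47 CPM in the top and 67.1 CPM in the bottom cells of VCaP–ENZ48. Glycolysis and hypoxia genes had a median of -0.09 in both VCaP libraries, with LDHA at 137 and 182 CPM in VCaP–ENZ48. Cytosolic ribosomal protein genes had a median of -0.30 in VCaP–ENZ48 and 0.18 in VCaP parental.

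**Figure D5:**
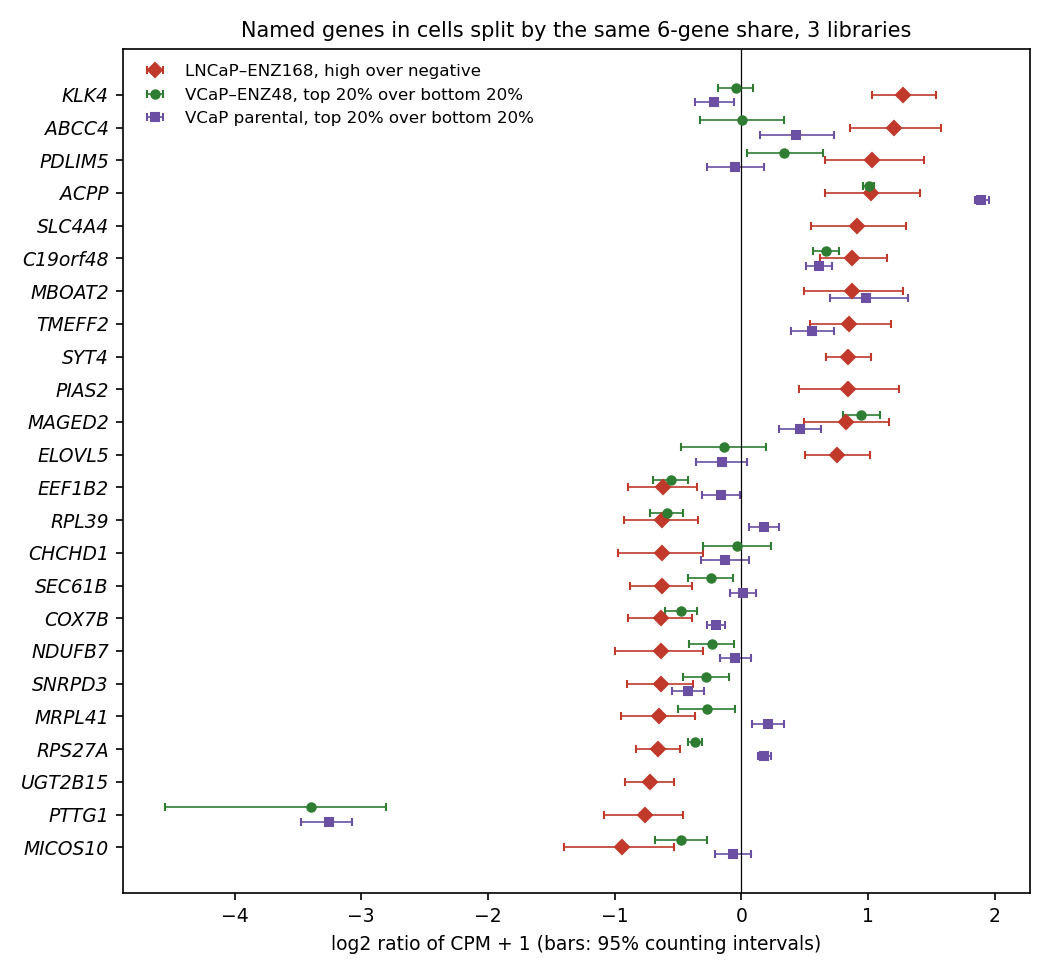
Log2 ratios of the 12 highest and 12 lowest genes of at least 100 CPM, in LNCaP–ENZ168 (high over negative) and in each VCaP library (top over bottom 20% of cells by the same share), with 95% counting intervals; VCaP points are drawn where the gene reached 50 CPM. ACPP, C19orf48 and MAGED2 lie to the right in all 3 libraries, KLK4 in LNCaP–ENZ168 alone, and PTTG1 lies far to the left in VCaP.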

How the data were processed

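Drop-seq libraries of LNCaP–ENZ168, VCaP–ENZ48 and VCaP parental were analysed. The authors ran the default Drop-seq tools pipeline, which uses STAR and Picard, against GRCh38 with Gencode annotation and an expectation of 1000 cells. What they deposited is a table of UMI counts by gene and barcode for each library, not normalized, with 1000 barcodes and no stated cell filter. Coordinates and transcript lengths come from a more recent Gencode release of the same build, and promoters from RefSeq.

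Cells were kept with at least 2000 UMIs, at least 300 genes and at most 25% mitochondrial UMIs. This left out 57 barcodes of LNCaP–ENZ168, 3 of them under the UMI minimum and 55 over the mitochondrial limit. The libraries shared 1 barcode, which was not among the kept LNCaP–ENZ168 cells. Doublets were not identified.

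UMIs were summed over the cells of a group and scaled to CPM. Ratios are log2 ratios of CPM + 1, with exact conditional intervals. Levels carry exact Poisson intervals and shares exact Clopper-Pearson intervals. A count of 0 allows up to 3 counts. Depth was checked by Mantel-Haenszel ratios over 10 depth bins and by thinning to 2000 UMIs. With 1 library per group no test was made, and the fold of 1.5 only sorts genes.

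Named genes were the 6 score genes, the 12 highest and 12 lowest among genes reaching 100 CPM in high or negative cells by the pooled or depth-binned log2 ratio nearer 0, and up to 4 members of each list with at least 5 genes compared. Others were named to give the members of a count, an exception, a label marker or a contrast after their values were seen. The score, groups and lists were chosen with earlier results of these data known, and 3 of the 22 lists were added after the values were seen. Some genes are not reported here.

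Alternatives covered the cell filter, the group limits, the score genes, scaling (TMM of edgeR 4.0.16), the pseudocount, the expression minimum, equal weighting of cells and bins of cell cycle share. The steps were tested on simulated data. Python 3.11.15, numpy 2.4.6, pandas 2.3.3, scipy 1.17.1, matplotlib 3.10.9 and R 4.3.3 were used.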

Additional observations from a re-analysis of the deposited data

Results flagged for a closer look

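The score genes were also present in barcodes that the cell filter left out. The 57 barcodes of LNCaP–ENZ168 outside the filter held 62 score UMIs of 202010, or 307 CPM (exact Poisson 95% interval 235 to 393 CPM), above the limit that a count of 0 allows. The kept cells were at 279 CPM, inside that interval.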

How the results depend on the processing

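The numbers of genes past 1.5-fold depended on the processing more than the list medians did. Against 110 higher and 44 lower genes, setting the groups on thinned cells gave 72 lower, keeping only barcodes ending in a base gave 79 lower, and the score without KLK3 or FKBP5 gave 76 or 89 lower. The top 10% of cells gave 212 higher and 198 lower, and the top 30% gave 55 and 22. All other kept cells in place of negative cells gave 36 higher, TMM scaling 51 higher and 96 lower, and a total without mitochondrial and ribosomal protein genes 91 lower. An expression minimum of 20 CPM gave 389 and 168, one of 100 CPM gave 32 and 15, and one of 50 CPM over all kept cells gave 66 higher. The score without TMPRSS2 gave 47 and 11, and bins of ribosomal protein share, chosen after seeing the data as was the minimum over all kept cells, gave 53 higher. A higher minimum compares fewer genes and a smaller group has wider counting error, and the cause of the other shifts was not tested.

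Of 6 androgen-induced genes at least 1.5-fold higher, 3 were past it with the top 30%, with all other kept cells and in bins of ribosomal protein share. Their list median stayed above 0 under all 28 alternatives, from 0.13 to 0.56, and KLK4 ran from 0.87 to 1.33. The androgen-repressed median turned to 0.038 with the top 30%. The ribosomal protein median was -0.53 with the top 10% and -0.23 without TMPRSS2 in the score. It was -0.023 in bins of ribosomal protein share, which follows largely from those bins. The G2M median was -0.60 without KLK3. MBOAT2 turned to -0.0051 on thinned groups, HMMR and UBE2C to 0.078 and 0.057 without TMPRSS2, and PMEPA1 from -0.41 to 0.75 with another random split of UMIs.

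No paired analysis was possible because the libraries have no replicates, and none was left out in turn. Depth limits single genes most: the score rests on 1763 UMIs, and a negative cell is one with no detected target.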
